A study of Mus musculus with 24 samples.

Results

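The nuclear genes for the subunits of respiratory complexes II, III and IV, of cytochrome c and of ATP synthase (complex V) were followed in liver and inguinal white adipose tissue (iWAT, a fat depot under the skin) of mice with and without Mrs2, a channel that lets magnesium into mitochondria. The members were the protein-coding rows of the authors' gene table whose symbol was Sdha to Sdhd, Cyc1 or Cycs, or began with Uqcr, Cox4 to Cox8 or Atp5. Cox7a1 and Cox8b, which mark brown fat, were left out. This gave 48 of 54532 rows, or 48 of 22046 protein-coding rows. Of these, 4 belong to complex II, 9 to complex III, 1 is cytochrome c, 16 belong to complex IV, 5 to the catalytic F1 part of ATP synthase and 13 to its membrane part (Fo), its stalk and its regulators. Atp5o has 2 rows, of which the second was listed at 0 in every library and was not tested. All its exonic bases (100%) are shared on the same strand with the first row or the gene Donson. Its 0 thus does not show that the transcript is absent.

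The 24 libraries came in 8 groups of 3: wild type (WT) and Mrs2 knockout (KO) mice, each on chow or on Western diet (WD), an obesogenic diet, in each tissue. Whether liver and iWAT came from the same mice is not stated in the labels. The diets were given for 52 weeks from 13 weeks of age. RNA came from 50 mg of liver and 100 mg of iWAT without its lymph nodes, and libraries were made from RNA held on poly-T beads. Values are the authors' FPKM, the fragment count scaled to gene length and library size. The labels describe the 3 samples of a group as biological replicates (mice), so p-values measure the spread between these mice. The tissue powder was not sorted, so fewer cells of a type and less RNA per cell cannot be told apart in any result here.

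The reads recovered from the FPKM numbered 14717613 to 19538975 per library in liver and 15358324 to 20354594 in iWAT. Hepatocyte markers (mean log2(FPKM + 1) of 6 genes) stood at 10.8 to 12.2 in liver and 2.84 to 4.40 in iWAT, and adipocyte markers at 9.29 to 9.99 in iWAT and 0.738 to 1.78 in liver. Mrs2 lay lower in all KO than in all WT libraries in iWAT on both diets (1.60 to 2.25 against 2.74 to 5.01 FPKM) and in liver on chow (3.90 to 4.47 against 5.87 to 6.50). In liver on WD the ranges overlapped (4.10 to 5.21 FPKM in those labelled KO and 4.10 to 5.11 in those labelled WT). The target gene thus does not separate the WD livers by label, and they are called "labelled KO" and "labelled WT". Skeletal muscle genes were high in replicate 1 of both WD groups in iWAT, and in liver of WT chow replicate 3 and labelled KO WD replicate 2. Pancreas acinar genes were high in liver of KO chow replicate 1 and labelled WT WD replicate 2. Lymphocyte genes (mean log2(FPKM + 1) of 6) also varied in iWAT. They stood at 4.71 in WT chow replicate 3, 4.44 in KO chow replicate 3 and 3.77 in KO WD replicate 2. In the other iWAT libraries they stood at 0.964 to 3.135.

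Complex II oxidises succinate and passes its electrons to ubiquinone. Complex III hands them on to cytochrome c, a small soluble carrier, and complex IV gives them to oxygen, and complexes III and IV pump protons that ATP synthase lets back through the membrane to make ATP. Most subunits are encoded in the nucleus and a few in the mitochondrial DNA, so that both genomes have to supply each of complexes III, IV and V. Brown and beige fat cells are rich in these complexes and use the proton gradient for heat, while white fat cells hold few mitochondria.

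Promoter sequence was taken from RefSeq (GRCm38.p6) for 34 members, each as a window from 250 bases before to 50 after the gene's start. The letters of 5 factor motifs were searched on both strands, and none of them is contained in another: CGCATGCG for NRF1, CCGGAAG for the ETS family, AAGATGGC for YY1, CAAGGTCA for the estrogen-related receptors (ERR) and TGACGTCA for the cAMP response element (CRE). The NRF1 letters were found in 8 of 34 members (23.5%) and in 2.1% of the 27025 genes with such windows, and the ETS letters in 12 members (35.3%) and 9.9% of genes. YY1 letters were in 3 members (8.8%, 3.2% of genes), ERR letters in 3 (8.8%, 1.8%) and CRE letters in 2 (5.9%, 2.0%). The 250 upstream bases of 4 members are printed because their RNA marks both ends of the results below: Cycs with the largest change in KO iWAT, the marker Cox5a, and Atp5g3 and Cox7a2l, which did not pass the test there. Capitals mark motif letters. In Cycs (chr6:50566570-50566819, minus strand) these are CRE, whose first letter lies 169 bases before the start, and NRF1, at 61 bases, and the window also holds an exon of an antisense gene. In Atp5g3 (chr2:73911327-73911576, minus strand) they are ERR, on the other strand, at 52 bases. In Cox5a (chr9:57520982-57521231, plus strand) and Cox7a2l (chr17:83514334-83514583, minus strand) none of these letters were found, which says nothing about the factors. A match is a description of the letters, not of binding.
Cycs: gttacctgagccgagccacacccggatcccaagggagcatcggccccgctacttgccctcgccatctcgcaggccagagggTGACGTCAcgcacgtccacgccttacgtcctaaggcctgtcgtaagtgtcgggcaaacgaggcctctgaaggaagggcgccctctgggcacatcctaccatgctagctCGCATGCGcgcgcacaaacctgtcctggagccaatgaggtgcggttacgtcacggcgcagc
Cox5a: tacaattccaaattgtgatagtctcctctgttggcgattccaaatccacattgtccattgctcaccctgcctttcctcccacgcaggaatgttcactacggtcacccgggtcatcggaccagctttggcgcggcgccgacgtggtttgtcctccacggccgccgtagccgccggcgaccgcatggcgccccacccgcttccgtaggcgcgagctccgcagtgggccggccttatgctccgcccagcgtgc
Atp5g3: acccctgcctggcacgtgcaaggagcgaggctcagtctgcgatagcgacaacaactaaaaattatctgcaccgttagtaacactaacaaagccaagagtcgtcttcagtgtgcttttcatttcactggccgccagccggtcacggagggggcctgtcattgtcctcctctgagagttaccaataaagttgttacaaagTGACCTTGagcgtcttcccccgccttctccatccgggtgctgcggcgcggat
Cox7a2l: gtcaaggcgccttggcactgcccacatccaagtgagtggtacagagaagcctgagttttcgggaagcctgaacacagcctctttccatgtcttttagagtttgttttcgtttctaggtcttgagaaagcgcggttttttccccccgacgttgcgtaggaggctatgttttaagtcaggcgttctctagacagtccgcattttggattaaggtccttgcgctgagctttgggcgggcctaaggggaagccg

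In iWAT on WD, the subunit genes were higher in KO than in WT mice. Of 45 members tested, 25 rose and none fell (limma, adjusted p under 0.05), with a median log2 fold change of 0.70 (all genes: -0.02). Among all 14685 genes tested, 3.2% rose. In 36 of the 45 members every KO library lay above every WT library, as in 12.7% of all genes. All 4 genes of complex II rose, 8 of 9 of complex III, Cycs, 6 of 14 tested of complex IV, 4 of 5 of F1 and 2 of 12 tested of the Fo and stalk group. The group medians were 1.07 in complex III, 0.92 in complex II, 0.70 in complex IV and in F1, and 0.56 in the Fo and stalk group.

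The marker Cox5a (chromosome 9, 57521274 to 57532426, mm10), a matrix-side subunit of complex IV, had 25.8, 25.6 and 20.3 FPKM in WT against 60.5, 58.0 and 36.6 in KO mice on WD. The marker Uqcrb (chromosome 13, 66900617 to 66905378), a small subunit of complex III, stood at 54.9, 62.9 and 51.5 against 135.5, 131.5 and 94.6. The marker Atp5o (chromosome 16, 91925214 to 91931687), the OSCP subunit that ties F1 to the stalk, stood at 39.0, 37.8 and 31.2 against 62.5, 59.9 and 48.0. For all 3 the groups were apart, and KO replicate 3 was the lowest KO library. The log2 fold changes by limma were 1.06 ± 0.18 (SE, n = 3 per group) for Cox5a (adjusted p = 0.0217), 1.07 ± 0.17 for Uqcrb (adjusted p = 0.0199) and 0.64 ± 0.13 for Atp5o (adjusted p = 0.0276). In Atp5o, 47.9% of the exonic bases are shared with other genes, 2 of them antisense. Its second row shares 243 of its bases on the same strand. Without knowing the strand setting and how shared reads were counted, its reads cannot be told from theirs.

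The largest change was in Cycs (chromosome 6, 50562563 to 50566538), cytochrome c itself. It stood at 30.8, 28.3 and 20.6 FPKM in WT against 83.1, 81.2 and 44.9 in KO mice on WD, a log2 fold change of 1.33 ± 0.23 (adjusted p = 0.0217 by limma). Within complex III, Uqcrfs1, the Rieske iron-sulphur protein, stood at 108.0, 107.1 and 78.7 against 287.7, 295.4 and 159.3 FPKM, which gave 1.29 ± 0.23 (adjusted p = 0.0230 by limma). Cyc1, the haem-bearing cytochrome c1, stood at 69.7, 71.8 and 51.2 against 164.2, 169.2 and 96.1, which gave 1.11 ± 0.21 (adjusted p = 0.0249 by limma). In each of these the lowest KO library was replicate 3, and it still lay above all WT libraries. The only complex III gene that did not pass was Uqcr11.

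In complex II, Sdha, the flavoprotein that oxidises succinate, stood at 106.4, 114.2 and 86.4 FPKM in WT and 232.1, 230.3 and 148.4 in KO libraries on WD (log2 fold change 0.97 ± 0.20, adjusted p = 0.0292 by limma). The membrane anchors Sdhc and Sdhd rose by 0.60 ± 0.12 and 0.88 ± 0.18 (adjusted p = 0.0275 and 0.0288 by limma). In F1, Atp5b, the catalytic beta subunit, stood at 277.6, 314.3 and 240.7 against 612.8, 616.1 and 409.6 FPKM (0.96 ± 0.20, adjusted p = 0.0288 by limma). Atp5a1, the alpha subunit, rose by 0.79 ± 0.18 and Atp5c1, the central gamma subunit, by 0.61 ± 0.14 (adjusted p = 0.0378 and 0.0375 by limma). Of the Fo and stalk group, Atp5j2 rose by 0.81 ± 0.19 beside Atp5o, and Atp5mpl, at 0.67 ± 0.17, did not pass (adjusted p = 0.0472 and 0.0531 by limma). Most F1 and complex II genes thus passed the test, and few of the Fo, stalk and regulator group did, with Atp5o of the stalk among them. Atp5j2 and Atp5mpl lay close to the threshold on either side, and the difference between the groups was not tested.

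In complex IV the 6 genes that rose were the general isoforms Cox4i1 (0.84 ± 0.18), Cox5a, Cox5b (0.93 ± 0.17), Cox6a1 (0.70 ± 0.16), Cox7a2 (0.79 ± 0.18) and Cox7b (0.96 ± 0.21), with adjusted p by limma from 0.0217 to 0.0427. Cox5b, for example, stood at 65.2, 66.9 and 54.8 FPKM in WT and 136.8, 134.9 and 91.6 in KO. Cox6b1 and Cox8a lay at 0.70 ± 0.17 and 0.42 ± 0.15 and did not pass (adjusted p = 0.0544 and 0.167 by limma), although their KO and WT libraries did not overlap. The log2 fold changes of members by complex, plotted for both diets, show these genes in 1 band and a few members away from it.

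**Figure D1:**
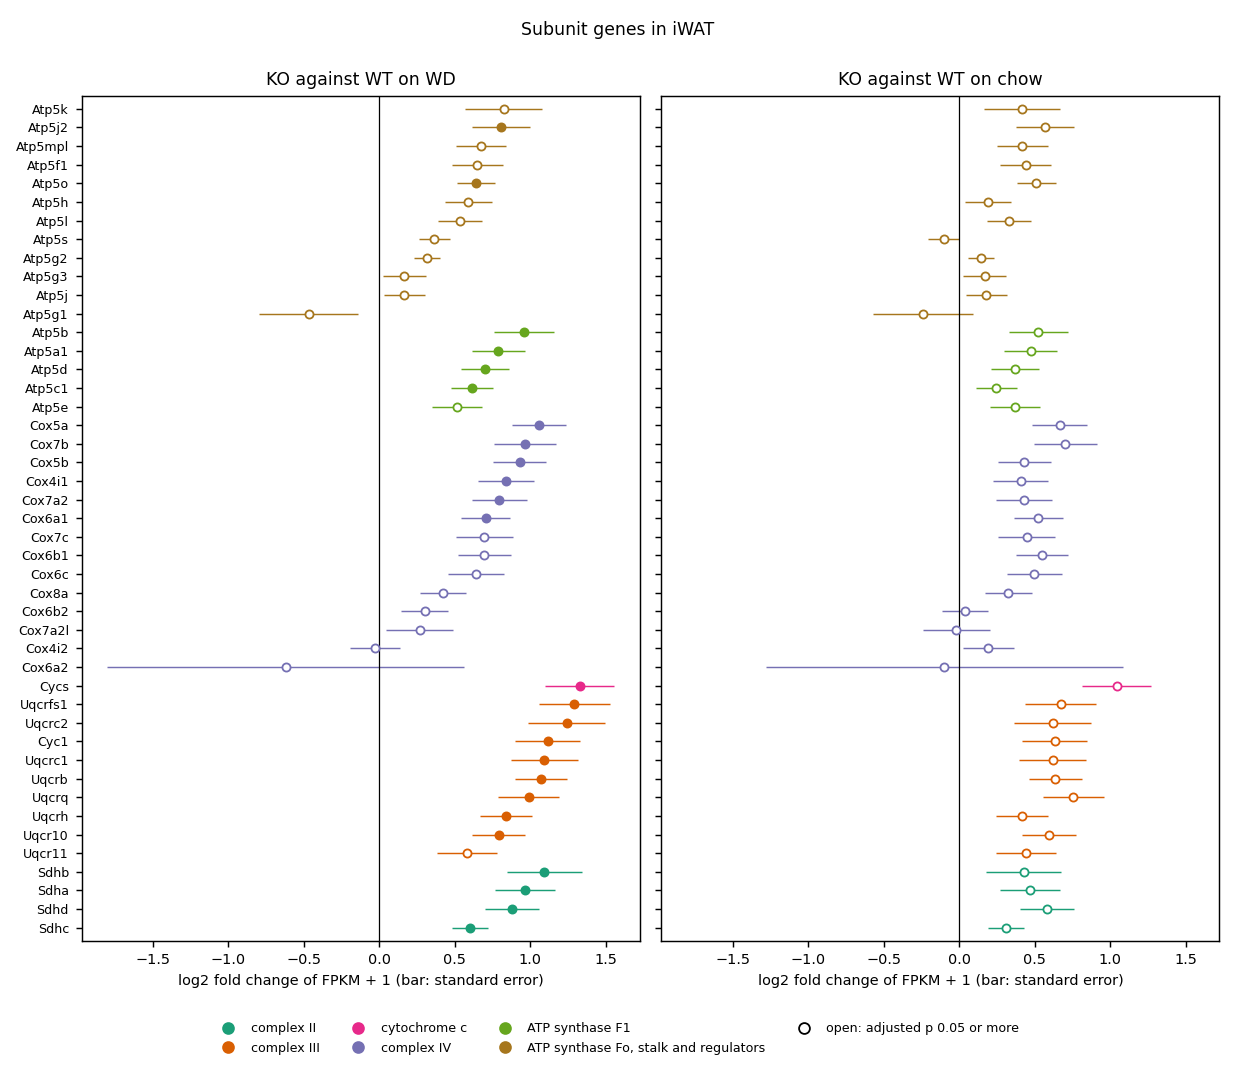
Log2 fold change (FPKM + 1) of KO against WT in iWAT for 45 subunit genes (rows, grouped by complex), on WD at the left and on chow at the right; bars are standard errors and filled points have an adjusted p under 0.05. On WD 25 points are filled, all to the right of 0, and on chow none is filled while 41 lie to the right of 0.

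Tissue-specific isoforms, the genes of subunit c, Cox7a2l and Atp5j, the coupling factor 6 subunit of the stalk, lay lowest on WD. Atp5j stood at a mean of 27.7 FPKM in WT and 31.0 in KO, with overlapping groups (0.16 ± 0.14, adjusted p = 0.578 by limma). Atp5g1, 1 of 3 genes that encode the same ring subunit c of Fo, stood at 7.36, 5.48 and 2.05 FPKM in WT and 3.24, 1.83 and 4.20 in KO libraries, with overlapping groups (log2 fold change -0.47 ± 0.33, adjusted p = 0.499 by limma). Its partners Atp5g2 and Atp5g3 lay at 0.31 ± 0.09 and 0.16 ± 0.14 (adjusted p = 0.0763 and 0.600 by limma). Atp5g3, the most abundant of the 3, stood at 95.8, 99.8 and 86.8 against 98.4, 95.9 and 124.4 FPKM. None of the 3 genes for subunit c passed the test, and their difference from the F1 genes was not tested.

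Cox7a2l, which joins complexes III and IV into supercomplexes, stood at 66.1, 53.9 and 67.6 FPKM in WT and 85.2, 85.5 and 58.2 in KO on WD (0.27 ± 0.22, adjusted p = 0.578 by limma). Its FPKM was 91.1% ± 30.4 (SD, n = 3) of that of its paralogue Cox7a2 in WT and 61.1% ± 4.69 in KO on WD, a ratio that no library scaling alters. Cox4i2, the isoform of lung and some other tissues, lay at -0.03 ± 0.17 and Cox6b2, the testis isoform, at 0.30 ± 0.15 (adjusted p = 0.949 and 0.336 by limma). Cox6a2, the isoform of heart and skeletal muscle, stood at 45.7, 4.26 and 1.28 FPKM in WT and 25.8, 3.16 and 0.386 in KO (-0.62 ± 1.18, adjusted p = 0.837 by limma). It was highest in the library of each group that was highest in skeletal muscle genes, replicate 1 in both. The sign of the values for Cox6a2 and Cox4i2 turned when single libraries were left out, and that of Atp5g3 under quantile normalization.

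The calls on WD in iWAT moved with single libraries. Calls over all genes in these fits are not given here, so the changes in count are not read as particular to the members. Without KO replicate 1, KO replicate 2 or WT replicate 3 no member was called, without WT replicate 2 3 members and without WT replicate 1 12, while 33 rose without KO replicate 3. The median stayed at 0.60 to 0.82 over these 6 fits. Without both libraries high in muscle genes no member was called (median 0.78), nor in a fit of the 2 WD groups alone (median 0.70), 4 were called with no filter on low values, and 14 under quantile normalization (median 0.57). Leaving out both replicate 1 libraries did not even out the muscle markers. They stood at 4.66 and 3.67 in the remaining WT and 1.31 and 1.61 in the remaining KO libraries on WD.

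On chow, no member was called in iWAT, and no gene at all was (0.0% of 14685; 29 of 45 members and 830 of all genes had an unadjusted p under 0.05; edgeR called 0 members and DESeq2 2). The values pointed up in 41 of 45 members, with a median log2 fold change of 0.43 (all genes: -0.01). In 38 members every KO library lay above every WT library, which holds for 5.86% of all genes. Cycs stood at 26.1, 23.4 and 21.5 FPKM in WT and 52.9, 45.9 and 50.3 in KO libraries, a log2 fold change of 1.04 ± 0.23 (adjusted p = 0.510 by limma). Cox5a stood at 21.8, 23.4 and 21.2 against 39.3, 32.4 and 35.5 (0.66 ± 0.18), Uqcrb at 80.2, 71.0 and 56.0 against 114.9, 105.8 and 100.1 (0.64 ± 0.17) and Atp5o at 31.8, 33.3 and 30.3 against 50.3, 44.5 and 42.6 FPKM (0.51 ± 0.13). Each of these had separate groups, with adjusted p by limma of 0.633 to 0.707.

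Behind Cycs, the largest values on chow were those of Uqcrq, a small subunit of complex III (0.76 ± 0.20), and Cox7b (0.70 ± 0.21), with adjusted p of 0.707 and 0.742 by limma. By group the medians on chow were 0.62 in complex III, 0.45 in complex II, 0.43 in complex IV, 0.37 in F1 and 0.26 in the Fo and stalk group. Atp5g1 stood at 4.83, 4.14 and 4.27 FPKM in WT and 3.27, 4.02 and 3.46 in KO libraries and did not pass (-0.24 ± 0.33, adjusted p = 1.0 by limma). Its nearest WT and KO libraries were 4.14 and 4.02 FPKM. In the authors' deposited table for chow, 10 members had an adjusted p under 0.05, all higher in KO, and in the authors' deposited table for WD 32 did, all higher. Among all genes, 104 had such a value on chow and 1281 on WD. How many genes the authors tested is not given there, so no share can be set beside these counts.

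Diet by itself gave no call among these genes in iWAT. WD against chow gave no called member of 45 in WT mice (2.12% of all genes were called; 2 members had an unadjusted p under 0.05; edgeR and DESeq2 called none) and none in KO mice (0.0% of all genes; 7 members with an unadjusted p under 0.05), with medians of -0.12 and 0.16. Without single replicates these ran from -0.20 to 0.02 in WT, above 0 without WT WD replicate 3, and from 0.09 to 0.32 in KO mice, the highest without KO WD replicate 3. The difference between the KO effects on the 2 diets, the interaction, was above 0 in 40 of 45 members with a median of 0.29 (0.17 without WT WD replicate 3 to 0.46 without KO WD replicate 3), and none was called (0.0% of all genes; lowest adjusted p = 0.643 by limma). The 2 effects are not shown to differ.

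As a share of all reads, which no scaling of libraries alters, the members took 1.002%, 0.961% and 0.957% in WT and 1.34%, 1.203% and 1.28% in KO iWAT on chow. On WD they took 0.990%, 0.970% and 0.762% in WT and 1.64%, 1.70% and 1.13% in KO. On both diets each KO library was above each WT library. Brown and beige adipocyte markers (Ucp1, Cidea, Cox7a1, Cox8b, Dio2, Elovl3 and Ppargc1a) moved with this share. Cox7a1 and Cox8b are themselves complex IV genes, and Ppargc1a is also read below among the biogenesis regulators. The list is thus not fully separate from the respiratory chain. Their mean log2(FPKM + 1) over 7 genes was 2.17 to 2.48 in WT chow, 4.69 to 5.45 in KO chow, 1.30 to 3.22 in WT WD and 4.83 to 6.45 in KO WD, and their summed FPKM 136 to 145, 622 to 886, 19.8 to 161 and 583 to 1929. On WD, 6 of these 7 markers rose (median 3.37), and on chow none was called, with values above 0 in 7 of 7. One marker was listed at 0 in WT WD replicate 3 and none in the other 11 libraries. KO WD replicate 3, the lowest of its group for most members, was also the lowest in these markers. Lists drawn up for other cells also separated the WD groups. The mean log2(FPKM + 1) of 5 red cell genes was 7.37 to 9.32 in WT and 5.94 to 7.19 in KO, with 1 gene called lower. That of 6 hepatocyte genes (Alb, Apoa1, Ttr, Cyp2e1, Cps1 and Pck1) was 2.84 to 3.29 in WT and 3.63 to 4.01 in KO. Of the 5 hepatocyte genes tested, 1 was called higher. Whether the hepatocyte list marks hepatocytes in iWAT was not tested. On chow both overlapped. No gene of either list was listed at 0. The part of such cells in the subunit result was not tested. Adipocyte markers did not pass on either diet.

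**Figure D2:**
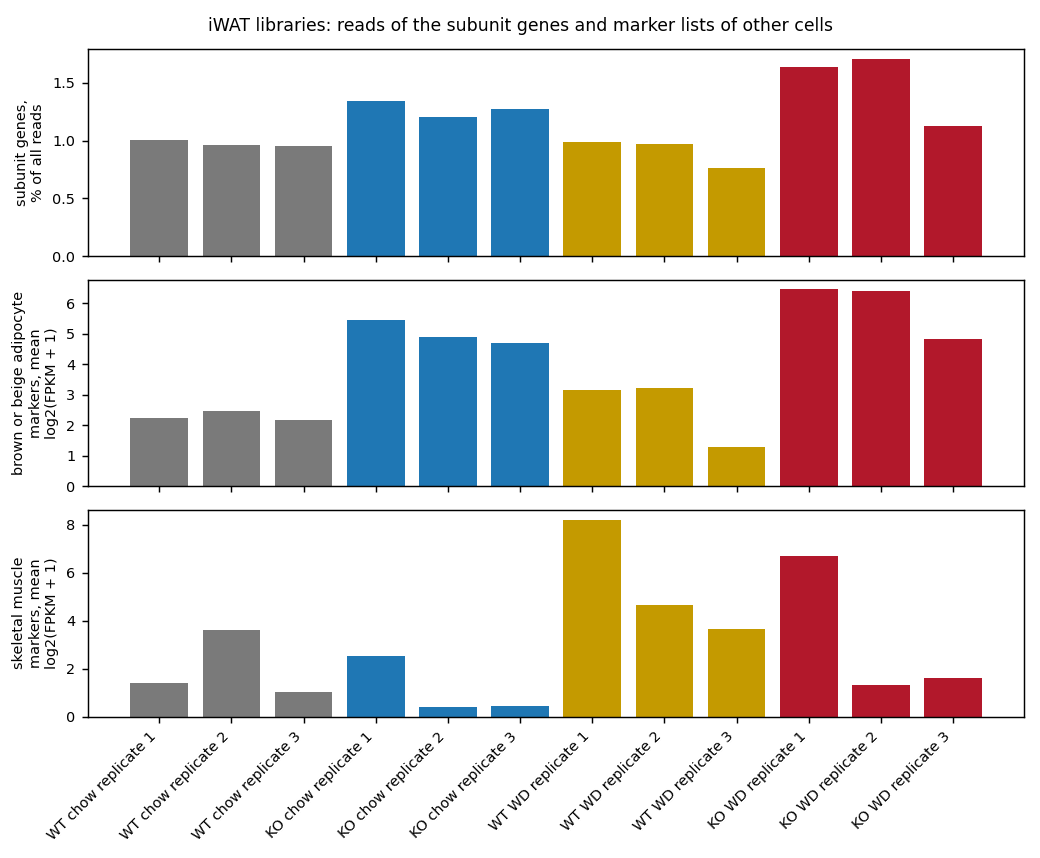
Share of all reads in the subunit genes (top, %), mean log2(FPKM + 1) of 7 brown or beige adipocyte markers (middle) and of 10 skeletal muscle markers (bottom) in the 12 iWAT libraries, coloured by group. The 3 KO WD libraries reach 1.64%, 1.70% and 1.13%, and the muscle markers stand highest in replicate 1 of each WD group.

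Other genes of the same machinery were read beside the members in iWAT on WD, where 3.2% of all genes rose. Of the 6 mitochondrially encoded genes of complexes III to V, 5 rose in KO (median 2.11), among them mt-Co2 (2.18 ± 0.36), mt-Co3 (2.03 ± 0.37) and mt-Cytb (1.64 ± 0.30), with adjusted p by limma of 0.0208 to 0.0232. Poly-T capture takes such transcripts only as far as they carry a tail. Of the 36 nuclear subunits of complex I, 17 rose and none fell (median 0.68). Of 36 assembly factors tested, 11 rose (median 0.33), such as Cox19 (0.56 ± 0.08), Bcs1l (0.70 ± 0.11) and Cox10 (0.55 ± 0.09), with adjusted p by limma of 0.0164 to 0.0186. Of 10 regulators of mitochondrial biogenesis tested, 2 rose, the coactivator Ppargc1b (1.26 ± 0.21, adjusted p = 0.0215 by limma) and the nuclear receptor Esrra (0.67 ± 0.16, adjusted p = 0.0488 by limma). Ppargc1a and Tfam, at 0.77 ± 0.21 and 0.26 ± 0.10, did not pass (adjusted p = 0.0793 and 0.209 by limma). Without KO replicate 1, KO replicate 2 or WT replicate 3 no complex I or mitochondrially encoded gene was called, and without WT replicate 2 2 of each were. Of the brown and beige markers, none was called without KO replicate 1 or 2 and 1 without WT replicate 3.

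In liver on chow the genotype left these genes without a call: 0 of 43 members (0.0% of 14019 genes; 1 member and 675 genes with an unadjusted p under 0.05; edgeR and DESeq2 called none). The median log2 fold change of KO against WT was 0.13 (all genes: 0.00), and 40 of 43 values were above 0. Cox5a stood at 45.5, 54.3 and 59.9 FPKM in WT and 53.1, 59.5 and 55.9 in KO livers, and Atp5o at 40.3, 40.5 and 40.9 against 43.4, 42.3 and 37.2. In both the groups overlapped.

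In livers labelled WT, most subunit genes lay lower on WD than on chow. Against chow in WT mice, 32 of 43 members fell and none rose (9.49% of all genes fell), with a median of -0.47 (all genes: -0.05). By group 2 of 4 genes of complex II, 7 of 9 of complex III, 8 of 12 tested of complex IV, 5 of 5 of F1 and 10 of 12 tested of the Fo and stalk group fell, and Cycs did not pass. These counts hold for the authors' scaling: 25 members fell with median-of-ratios scaling, 3 under quantile normalization (median -0.18) and 1 when libraries were scaled by all reads (median -0.13, all genes 0.21), so the median stayed below 0 and the calls, all of them lower, became fewer.

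Atp5o stood at 40.3, 40.5 and 40.9 FPKM in WT livers on chow and at 26.9, 25.7 and 26.9 in those labelled WT on WD, a log2 fold change of -0.60 ± 0.08 (adjusted p = 0.00125 by limma). Uqcr10, a small subunit of complex III, stood at 174.0, 182.0 and 192.9 against 133.1, 122.8 and 120.5 (-0.54 ± 0.10), and Atp5d, the delta subunit of F1, at 127.3, 124.2 and 141.9 against 86.2, 99.1 and 88.2 (-0.52 ± 0.09), with adjusted p by limma of 0.00571 and 0.00529. The groups of these 3 genes did not overlap. Cox5a fell by 0.52 on the log2 scale (SE 0.12) and Uqcrb by 0.50 (SE 0.14), with adjusted p by limma of 0.0155 and 0.0358. Further falls were those of Uqcrc1, a core subunit of complex III (-0.65 ± 0.14), Atp5g1 (-0.70 ± 0.14), Atp5g3 (-0.63 ± 0.12), Sdhb, the iron-sulphur subunit of complex II (-0.54 ± 0.12), Atp5h (-0.51 ± 0.09) and Cox8a (-0.47 ± 0.10), with adjusted p by limma of 0.00555 to 0.0148. Atp5g1 and Atp5g3, which did not pass in KO iWAT, thus both fell here.

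The members that did not fall in WT liver were mixed. Atp5s, a regulator of the ATP synthase coupling factor, stood at 4.64, 3.16 and 3.26 FPKM on chow and 3.94, 3.46 and 4.52 on WD (0.09 ± 0.13), the highest of the 43 values. Atp5k, the small e subunit of Fo, had the lowest (-0.75 ± 0.33) with a wide spread, at 69.7, 50.5 and 64.4 against 59.0, 30.5 and 25.5 FPKM. Cycs stood at 26.2, 34.9 and 26.3 against 23.7, 28.6 and 23.0 (-0.20 ± 0.14), with overlapping groups. Cox7a2l and Cox6a2 lay at -0.21 ± 0.14 and -0.69 ± 0.86. Adjusted p by limma for these 5 was 0.144 to 0.656. For Cycs and Cox7a2l the sign turned when libraries were scaled by all reads, and for Cox6a2 without WT chow replicate 3, the liver library highest in muscle genes.

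Set against those labelled WT on WD, the livers labelled KO were higher in 15 of 43 members and lower in none (10.6% of all genes were higher), with a median of 0.32 (all genes: 0.07). The 15 were 2 of complex II, 4 of complex III, 2 of complex IV, 3 of F1 and 4 of the Fo and stalk group. With no filter on low values 12 were called higher and Cox6b2, which stood at 0.786, 0.279 and 0.558 against 0.0, 0.0663 and 0.0768 FPKM, was called lower (-0.54 ± 0.14, adjusted p = 0.0359 by limma). In the authors' deposited table for these livers 17 members had an adjusted p under 0.05, of which 16 were higher, and Cox6b2 was lower. Among all genes 4217 had such a value there, in either direction. The direction is not stable to scaling: the median was 0.23 with median-of-ratios scaling and 8 calls, 0.02 under quantile normalization with no call, and -0.00 when scaled by all reads (all genes -0.18), with Atp5s called lower (-0.46 ± 0.13, adjusted p = 0.0247 by limma). The plot of calls by scaling sets this beside iWAT, where the calls kept their direction under all 6 (scaled by all reads, the median of all genes there was -0.11). As a share of all reads the members took 0.763%, 0.794% and 0.745% in the livers labelled WT and 0.762%, 0.798% and 0.807% in those labelled KO, which overlap.

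**Figure D3:**
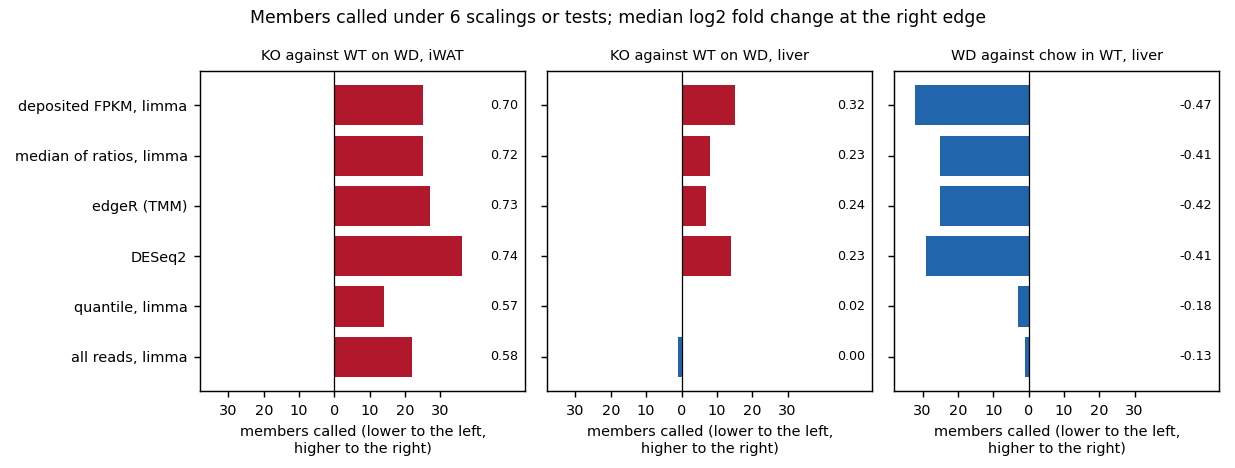
Members called under 6 scalings or tests (rows), lower to the left in blue and higher to the right in red, for 3 comparisons; the number at the right edge of each panel is the median log2 fold change of the members. In iWAT 14 to 36 members are called higher, while in liver the calls drop to 0 or 1 (KO against WT on WD) and 3 or 1 (WD against chow in WT) under quantile normalization and scaling by all reads.

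Cox5a stood at 31.1, 40.0 and 39.2 FPKM in the livers labelled WT and at 54.4, 54.6 and 53.8 in those labelled KO, which differed by 0.56 ± 0.12 (adjusted p = 0.0114 by limma). Atp5o stood at 26.9, 25.7 and 26.9 against 34.4, 35.7 and 35.8 (0.40 ± 0.08, adjusted p = 0.00675 by limma). Uqcrc1 stood at 40.5, 52.7 and 46.0 against 63.8, 70.9 and 69.6 (0.55 ± 0.14, adjusted p = 0.0182 by limma). In these 3 genes the libraries labelled KO all lay above those labelled WT and close to each other. Uqcrb stood at 104.9, 77 and 80.9 against 95, 118.4 and 113.7, with overlapping groups (0.32 ± 0.14, adjusted p = 0.142 by limma).

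Further calls were Cyc1 (0.54 ± 0.13), Sdhb (0.50 ± 0.12), Sdha (0.49 ± 0.14), Atp5a1 (0.46 ± 0.12), Atp5d (0.46 ± 0.09), Atp5g3 (0.46 ± 0.12), Uqcrq (0.41 ± 0.11) and Cox4i1 (0.37 ± 0.12), with adjusted p by limma of 0.00822 to 0.0467. Cycs, the member with the largest change in iWAT, lay at 0.14 ± 0.14 here (adjusted p = 0.527 by limma), with 23.7, 28.6 and 23.0 against 25.1, 30.5 and 27.6 FPKM. Atp5s and Cox7a2l were the 2 members below 0 (-0.20 ± 0.13 and -0.12 ± 0.14), and Cox6a2 the highest with the widest error (0.67 ± 0.86). None of these passed (adjusted p by limma 0.312 to 0.624). The sign for Cycs turned under quantile normalization and scaling by all reads, that for Uqcrb under the latter, and that for Cox6a2 without labelled KO replicate 2, which was high in muscle genes.

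**Figure D4:**
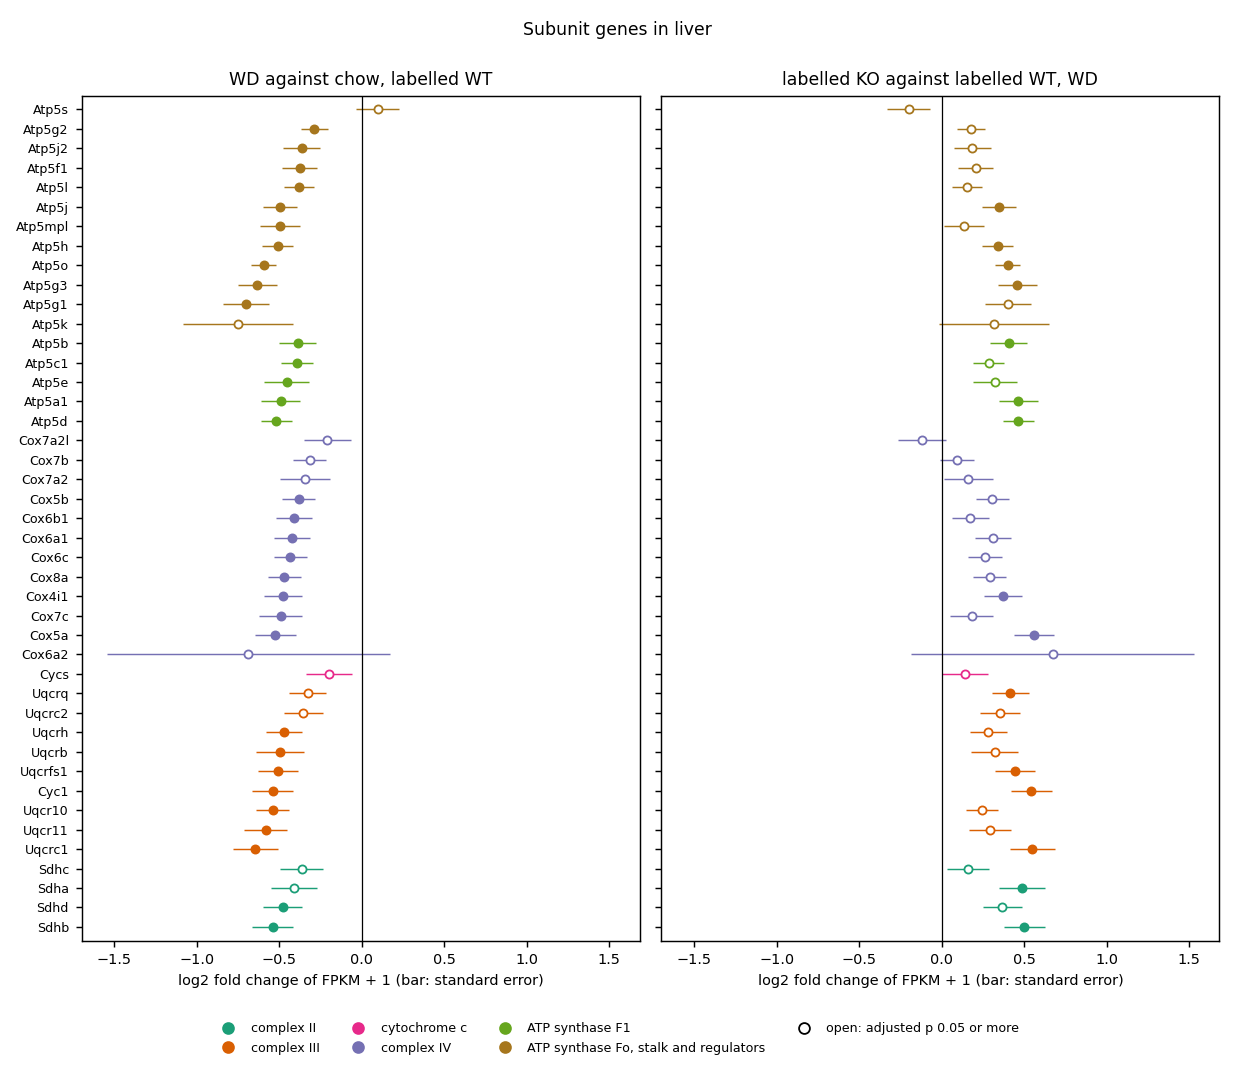
Log2 fold change (FPKM + 1) of 43 subunit genes in liver (rows, grouped by complex): WD against chow in WT at the left, labelled KO against labelled WT on WD at the right; bars are standard errors and filled points have an adjusted p under 0.05. At the left 32 points are filled, all below 0, and at the right 15, all above 0; both panels use the libraries labelled WT on WD.

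These 2 liver comparisons share the 3 libraries labelled WT on WD, so their opposite signs are not separate evidence. Markers of other cells moved with that group too. Macrophage markers stood at 4.74 to 5.94 (mean log2(FPKM + 1) of 6 genes) in the livers labelled WT on WD and at 2.29 to 3.31 in the other 9 liver libraries, and hepatocyte markers at 10.8 to 11.0 against 11.8 to 12.2. Against these libraries, 6 of 6 macrophage and 6 of 6 fibroblast markers were lower and 5 of 6 hepatocyte markers higher in those labelled KO, where no macrophage marker was listed at 0. Of all 14019 genes tested, 1453 were called lower and 1490 higher in this comparison. These counts are those under the authors' scaling. The part of the cell make-up in the subunit result was not tested. The effective library size behind the deposited FPKM was 0.980 to 1.07 times the reads in the same 3 libraries and 0.769 to 0.854 times in the other 9.

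Calls in liver also moved with single libraries, and here too the calls over all genes in these fits are not given. The 15 higher calls became 5 without labelled WT replicate 1, 4 without labelled WT replicate 3, and 7, 5 and 4 without labelled KO replicate 1, 2 and 3. They became 7 without the libraries high in muscle or acinar genes, a fit that dropped 1 library from each of the 4 liver groups. The 32 lower calls became 12 without WT chow replicate 3 and 11 without labelled WT WD replicate 3. They became 1 in the same fit without 1 library from each of the 4 groups, and 2 in a fit of the compared groups alone.

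In KO mice WD against chow gave no called member in liver (0.421% of all genes were called; 23 members with an unadjusted p under 0.05; edgeR called 0 and DESeq2 10, all lower), with a median of -0.24. The interaction of genotype and diet gave none either (0.549% of all genes; lowest adjusted p among members 0.141 by limma; edgeR and DESeq2 called none), with a median of 0.15 that turned to -0.04 under quantile normalization and -0.13 when scaled by all reads. The diet effects in livers labelled WT and labelled KO are thus not shown to differ. Beside the members in the livers labelled KO against labelled WT, 18 of 36 complex I subunits, 2 of 6 mitochondrially encoded genes, 3 of 34 assembly factors and 3 of 11 biogenesis regulators were called higher and none lower, where 10.6% of all genes were called higher; the share of assembly factors is no larger than that. Scaled by all reads, none of these genes was called higher and 1 assembly factor lower, and under quantile normalization 1, 1, 2 and 3 were called higher. For WD against chow in WT, 23 of 36 complex I subunits fell, and 6 of 34, 0 of 6 and 3 of 11 genes of the assembly, mitochondrially encoded and biogenesis lists (9.49% of all genes fell). With quantile normalization 8 complex I subunits and 5, 0 and 1 genes of these lists fell, and 2, 1, 0 and 0 when scaled by all reads, where 2 assembly factors were called higher.

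The levels of 6 members are plotted in each library. Cycs, Cox5a and Uqcrb separate KO from WT in iWAT on both diets, Atp5g1 and Cox7a2l do not follow, and in liver the libraries labelled WT on WD lie low for Cox5a and Atp5o.

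**Figure D5:**
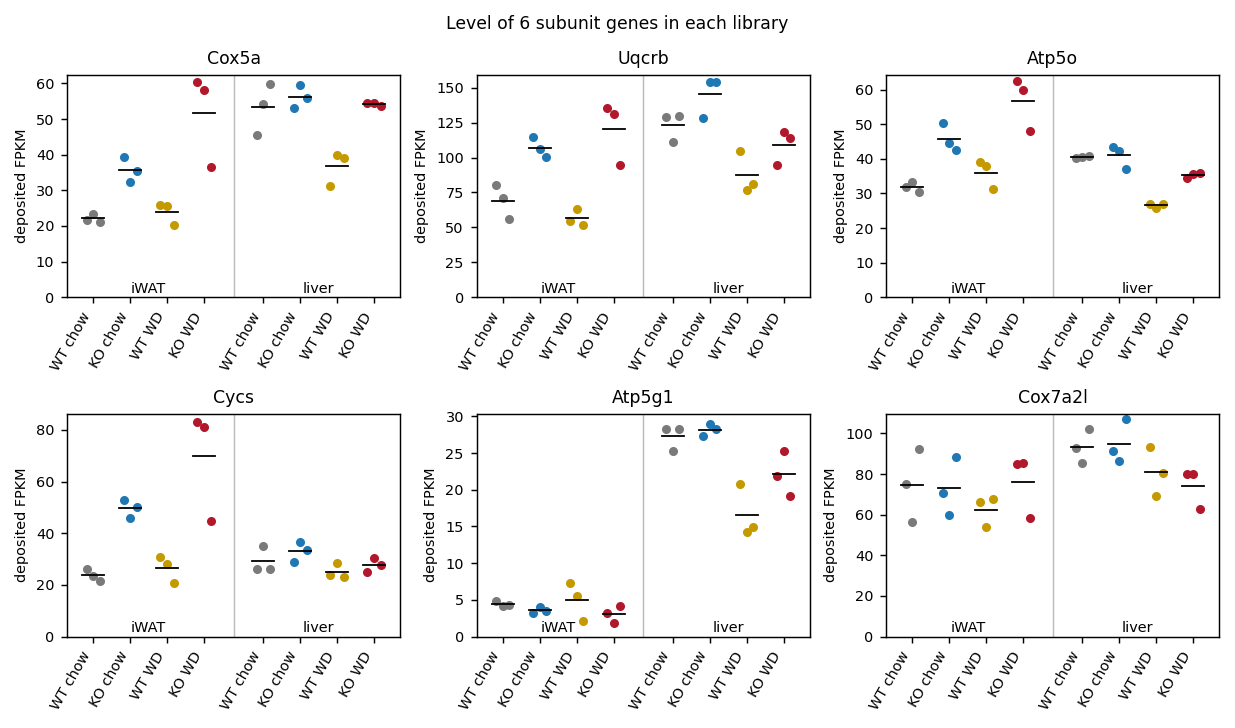
Deposited FPKM of Cox5a, Uqcrb, Atp5o, Cycs, Atp5g1 and Cox7a2l in the 24 libraries; points are single libraries, black lines group means, iWAT at the left and liver at the right of each panel. Cycs reaches 83.1, 81.2 and 44.9 FPKM in KO WD iWAT and stays between 23.0 and 36.5 FPKM in liver.

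Between tissues, 32 of 45 members were lower and 3 higher in iWAT than in liver of WT mice on chow (32.5% of all genes were lower and 31.5% higher), with a median of -0.50. Among the 3 higher ones, Cox4i2 and Cox6b2 passed the filter on low values through iWAT alone. The direction of the median turned with the scaling: under quantile normalization the median was 0.34 and 21 of 24 calls were higher, and scaled by all reads it was 0.28 (all genes 0.60) and 19 of 23 were higher. The members took 0.771% to 0.868% of reads in liver and 0.957% to 1.002% in iWAT of these mice. Ratios between members do not depend on scaling. Atp5g1 was 16.6% ± 1.10 (SD, n = 3) of Atp5g3 in WT chow liver and 4.75% ± 0.760 in WT chow iWAT, and over all 12 libraries of a tissue 12.3% to 21.8% in liver and 1.91% to 7.68% in iWAT. Atp5a1 was 118% ± 4.71 of Atp5b in WT chow liver and 77.1% ± 4.61 in iWAT. For both ratios no iWAT library reached the lowest liver library.

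The isoforms of complex IV that are bound to certain tissues were scarce. Cox4i2 was 1.003% ± 0.174 (SD, n = 3) of Cox4i1 in WT chow iWAT and 0.0141% ± 0.0245 in liver, where it lay under the mean of 0.5 FPKM needed for testing, as did Cox6b2. Cox8a was called higher in iWAT than in liver (0.47 ± 0.12, adjusted p = 0.00200 by limma). Atp5g1 had the lowest value (-2.39 ± 0.26, adjusted p = 1.91e-07 by limma). Cox4i2 and Cox6b2 were also called higher (1.69 ± 0.16 and 0.66 ± 0.15, adjusted p = 2.27e-08 and 0.000930 by limma). Over all libraries of a tissue they averaged 0.166 and 0.269 FPKM in liver and 2.475 and 1.225 in iWAT. They thus entered this test through iWAT alone, so the filter largely set the direction of these calls. Cox7b2 and Cox8c were listed at 0 in all 24 libraries. Cox6a2 stayed under 1% of Cox6a1 except in iWAT on WD (11.3% and 1.02% in WT replicates 1 and 2, 3.76% in KO replicate 1), and in WT chow replicate 3 (1.98%) and labelled KO WD replicate 2 (1.43%) of liver.

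Several members share sequence with processed pseudogenes, and how the authors' counting split such reads is not given in the sources used here. Of 48 members, 15 had a pseudogene copy with at least 95% identity over 150 bases. Gm10039, a copy of Atp5g1 (99.8% identity), stood at a mean of 88.3 FPKM in liver and 22.0 in iWAT and held 24% and 30.9% of the reads of both genes. Gm10221 held 17.8% and 17.6% of the reads with Atp5l, Gm10250 10.4% and 10.1% with Atp5h, and Gm6969 8.6% and 8.3% with Cox7a2l. Gm16418 held 6.2% and 6.8% with Uqcr11. The level of Atp5g1, Atp5l, Atp5h, Cox7a2l and Uqcr11 is uncertain for this reason. These shares do not limit the error, since it is not known how reads matching both genes were counted.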

How the data were processed

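RNA-seq of 24 mouse libraries was analysed from the authors' deposited gene table of FPKM, per the file headers, with gene length beside it. Per the submitters' processing notes, mm10, DESeq2 1.20.0 and HISAT2 2.0.5 were used, with no role stated. Which counter was used, and whether strand was read, is not given in the sources used here. In the authors' 4 deposited comparison tables stand read counts, log2 fold changes and p-values of genes with an unadjusted p under 0.05, per the file headers, and 32 columns of values in them were not used. Multiplying FPKM by gene length and 1 constant per library gave whole reads within 0.01 for all 540911 values above 0 (100%), and all 64434 deposited counts compared were equal to them.

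The members and lists were chosen with earlier results of these data known. Tested were genes averaging 0.5 FPKM or more in a tissue's 12 libraries (14019 in liver, 14685 in iWAT, 15254 for the tissues), so 43 and 45 members entered. The test was limma 3.58.1 in R 4.3.3 on log2(FPKM + 1), with a variance trend, a robust prior, all 4 groups of a tissue in 1 fit and Benjamini-Hochberg adjustment over all genes tested. A gene was called at an adjusted p under 0.05. The pseudocount of 1 understates the change of low genes. Alternatives were count tests of the recovered reads (DESeq2 1.42.0, edgeR 4.0.16), other scalings, filters, a pseudocount of 0.1, fits of the compared groups alone, a replicate block, and fits without single libraries. Scaling by all reads was added after seeing the data. Scripts were tested on simulated data. Tables and plots used Python 3.11.15, pandas 2.3.3, numpy 2.4.6 and matplotlib 3.10.9.

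Named genes are the markers Cox5a, Uqcrb and Atp5o, up to 3 members per group with the smallest p, the largest and smallest change, isoform pairs and members too low to test. Not all genes of the rule are printed. Uqcr11 and Atp5j (WD iWAT) and Uqcrq and Cox7b (chow iWAT) were named after their values were seen. Samples of equal number had r above 0.1 in all pairs in 1 comparison, that of the genotypes in chow iWAT (r = 0.184, 0.127 and 0.407 across genes of the residuals), where number 2 correlated better with another number (0.258). Nothing in the labels pairs the mice. The fit between tissues treated liver and iWAT libraries as separate mice, which the labels do not settle.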

Additional observations from a re-analysis of the deposited data

How the results depend on the processing

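Counts of called members by comparison depended on the processing as follows. The calls over all genes in the same fits are not given here, so no change in count is read as particular to the members. For KO against WT on WD in iWAT (25 members) the count was 4 without a filter on low values, 14 under quantile normalization, 0 in a fit of the compared groups alone and 0 without the libraries high in muscle genes; without single replicates it was 0 to 33. For KO against WT on WD in liver (15) it was 0 under quantile normalization, 8 with median-of-ratios scaling, 1 (lower) with scaling by all reads, 7 by edgeR, 7 without the libraries high in muscle or acinar genes and 4 to 15 without single replicates. For WD against chow in WT liver (32) it was 3, 25 and 1 under these scalings, 2 for the compared groups alone, 1 without the libraries high in muscle or acinar genes and 11 to 32 without single replicates. For WD against chow in KO liver (0) DESeq2 called 10, and for KO against WT on chow in iWAT (0) it called 2. For WD against chow in WT iWAT (0) 1 member was called without the libraries high in muscle genes, and 0 to 1 without single replicates. For iWAT against liver (35) scaling by all reads gave 23 and single replicates 31 to 35.

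Signs turned in the following named members, none of them called: Cox6a2 in iWAT on WD (-1.78 to 0.63 without single replicates, 0.36 without KO WD replicate 3), Cox4i2 there (0.0065 by DESeq2, -0.20 to 0.15 without single replicates, 0.09 without WT WD replicate 3, 0.075 without the libraries high in muscle genes) and Atp5g3 there (-0.028 under quantile normalization). In liver on WD these were Uqcrb (-0.0037 scaled by all reads), Cycs (-0.027 under quantile normalization, -0.18 by all reads) and Cox6a2 (-0.14, without labelled KO replicate 2, to 1.15 without single replicates, -0.26 without the libraries high in muscle or acinar genes). For WD against chow in WT liver they were Cycs (0.13 by all reads), Cox7a2l (0.092 under quantile normalization, 0.13 by all reads) and Cox6a2 (-1.24 to 0.36 without single replicates, the highest without WT chow replicate 3, and 0.48 without the libraries high in muscle or acinar genes). The cause was not tested.

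With the replicate block, 32 members were called for KO against WT on WD in iWAT, 14 for the livers labelled KO against WT on WD, 28 for WD against chow in WT liver, 36 between tissues and 0 in the other comparisons. The 3 mice per group limit the precision of every value.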

Other observations

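Values of 4 genes of the same complexes that fell outside the rule are given here. Usmg5, a small subunit of the membrane part of ATP synthase under another name, stood in iWAT at 219.4, 157.3 and 125.5 FPKM in WT and 256.5, 264.7 and 221.1 in KO libraries on WD, so that the groups did not overlap. Atpif1, which encodes the inhibitor that blocks ATP synthase when it would run backwards, stood at 7.98, 10.8 and 11.6 FPKM in WT and 5.29, 6.26 and 6.95 in KO on WD, the other way round and also without overlap. On chow the Atpif1 ranges overlapped (6.66 to 8.56 in WT, 6.41 to 7.40 in KO). By limma on WD in iWAT the log2 fold change of Atpif1 was -0.63 ± 0.14 (adjusted p = 0.0393) and that of Usmg5, which did not pass, 0.59 ± 0.19 (adjusted p = 0.109). On chow neither passed (adjusted p = 1.0 and 0.779 by limma).

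Cox7a1 and Cox8b, the complex IV isoforms of brown fat and muscle that the rule left out, moved further than any member in iWAT. Cox7a1 stood at 3.72, 4.71 and 3.54 FPKM in WT and 58.2, 36.5 and 30.2 in KO on chow, and at 26.3, 11.2 and 2.40 against 116.6, 139.4 and 31.1 on WD. Cox8b stood at 103.2, 92.4 and 103.5 against 427.2, 353.3 and 377.5 on chow, and at 89.0, 79.3 and 11.1 against 512.7, 615.8 and 300.1 on WD. By limma on WD their log2 fold changes were 2.96 ± 0.72 (adjusted p = 0.0497) and 3.37 ± 0.63 (adjusted p = 0.0235). On chow they were 3.05 ± 0.72 and 1.94 ± 0.63, and neither passed (adjusted p = 0.544 and 0.779 by limma).

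The level of Cycs as a share of that of Cyc1, its reductase, was higher in KO than in WT iWAT. Cycs was 37.6% ± 3.38 (SD, n = 3) of Cyc1 in WT and 50.8% ± 5.52 in KO on chow, and 41.3% ± 2.54 in WT and 48.4% ± 1.99 in KO on WD, with no overlap of the libraries on either diet. In liver on WD the same ratio was 33.9% ± 2.30 in those labelled WT and 25.6% ± 1.22 in those labelled KO, in the other direction and without overlap. In liver on chow it was 27.1% ± 4.74 in WT and 27.4% ± 2.05 in KO, with overlapping libraries. These ratios do not depend on library scaling, were chosen after their values were seen and were not tested.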
